A study of Mus musculus with 15 samples.

Results

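The genes described here encode 10 components of the basement membrane, the sheet of extracellular matrix that in the eye thickens into the lens capsule. They were listed by name and matched to the gene symbols of the data: *Col4a1* and *Col4a2*, which encode collagen IV chains, the laminin chain genes *Lama4*, *Lama5*, *Lamb1*, *Lamb2* and *Lamc1*, the nidogen genes *Nid1* and *Nid2*, and *Hspg2*, which encodes perlecan. All 10 were found among the 11677 genes of the cultures and 9 of them among the 11299 genes of the spheroid regions, *Nid2* being analysed in the cultures only.

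The samples were 21EM15 cells, an established line of mouse lens epithelial cells, labelled wild type (WT) in every group. Expression was measured via 3′ end RNA sequencing in 15 samples: 4 of cells grown flat in dishes (2D), 4 of spheroids grown in wells that prevent attachment (3D), and 4 internal and 3 external samples, each taken from the inner or the outer region of such spheroids. The regions were cut by laser capture microdissection from frozen sections of pooled spheroids, and no treatment or allele distinguished the groups. Per the paper's methods, dishes were harvested before full confluence and spheroids were cultured for longer. Time and density of culture thus differed along with 2D and 3D, and their parts cannot be told apart here. The cultures and the regions were extracted with different kits and normalised separately, and no test was made between them. A further external sample, which the study left out after a principal component analysis because it differed from the others, was not analysed here, so that the external spread is that of the retained samples. All samples come from 1 cell line, so the spread between replicates is that between samples of this line, and p-values measure only that spread.

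Laminins are trimers of 1 α, 1 β and 1 γ chain that bind to cell surface receptors and assemble the first layer of a basement membrane. Collagen IV forms a covalent network that gives the sheet its strength, and nidogens and perlecan bind to both networks. In the lens, the epithelial cells secrete the capsule that encloses them, and the capsule is rich in collagen IV and laminin.

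*Col4a1* (chromosome 8, 11198423 to 11312826, minus strand) and *Col4a2* (chromosome 8, 11312805 to 11449287, plus strand) lie head to head, and their annotated starts overlap. The stretch that holds both starts is shown because the 2 genes are described together below. It was taken from RefSeq (GRCm38.p6, chr8:11312797-11312826, plus strand) and printed 5′ to 3′, the capitals marking the 22 bases that belong to the annotated first exons of both genes.

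*Col4a1* and *Col4a2* starts: ccctcggcAGTGCGCGGGCGGCGTCTCCAA

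Promoter windows of 300 bases from RefSeq were matched for 7 of the 10 genes. Searched on both strands, the letters GGGCGG occurred in 6 of these 7 windows, against 35.7% of all 32851 windows. CCCTCCCC, whose reverse complement GGGGAGGG can share its last letters with GGGCGG, occurred in 4 of the 7, against 10.8% of all windows. CCAAT occurred in 4 of the 7, against 37.4% of all windows, and TATAAA in 0 of the 7, against 13.6%. The windows of *Col4a1* and *Col4a2* overlap, so that letters in the shared stretch count for both genes. Among these are the GGGCGG printed above and a CCCTCCCC. These motifs were chosen after the sequences had been seen, and a match is only a description of the letters.

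The depth behind these values was between 7305053 and 9362587 reads per 2D sample, 7727642 and 8364276 per 3D sample, 4256391 and 11702504 per internal sample, and 4044230 and 6086089 per external sample. Values are given as log2 CPM, the log2 of the read count scaled to library size. As reads come from the transcript ends, their number does not scale with transcript length, and levels of different genes are set side by side in CPM. Whether the ends of all genes were captured and assigned equally well was not checked. The 2D replicate 3 had 190 genes without a read, compared with 21 to 68 in the remaining 2D replicates, and some values below are also given without it. Lens markers were detected, other than *Foxe3*, *Cryaa* and *Cdh1*, which were not among the genes of either data set analysed here: *Pax6*, a transcription factor of eye development, had 7.65 ± 0.22 log2 CPM in the internal region (SD, n = 4), and *Cryab*, a crystallin, had 8.67 ± 0.28. *Vim*, a marker of both lens epithelial and mesenchymal cells, was higher than both at 12.35 ± 0.26 log2 CPM.

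To find how basement membrane genes were distributed within spheroids, the internal region was compared with the external region. Of the 9 genes, 5 were higher in the internal region (*Col4a1*, *Col4a2*, *Lamb2*, *Lamc1* and *Nid1*), 1 was lower (*Lama4*) and 3 did not pass the test (*Lama5*, *Lamb1* and *Hspg2*). A gene passed at an adjusted p under 0.05 in limma, with adjustment over all genes. By this rule 9.58% of all genes were higher in the internal region and 12.1% were lower. A stricter threshold asked for an adjusted p under 0.01 together with a log2 fold change above 1 or below -1. There both collagen IV genes remained among the higher ones, against 3.27% of all genes, and 0 of the 9 among the lower ones, against 4.35% of all genes. In 4 of the 9 genes every internal sample lay above every external sample, which held for 13.5% of all genes, and in 0 of the 9 every internal sample lay below, which held for 15.4%. The median log2 fold change was 0.62 over the 9 genes and 0.04 over all genes. As the list was chosen with earlier results of these data known, these counts are only a description.

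*Col4a1* had the highest level of the 9 genes in both regions. It had 10.63, 10.70, 10.17 and 10.62 log2 CPM in the internal replicates 1 to 4 and 9.24, 8.77 and 9.04 in the external replicates 1 to 3. The groups were well separated, with the lowest internal sample, replicate 3, above every external one. On the linear scale the level was 1493 ± 234 CPM (SD, n = 4) in the internal region and 522 ± 84.5 CPM (SD, n = 3) in the external one. This gave a log2 fold change of 1.51 ± 0.15 (SE, adjusted p = 1.17e-07 in limma).

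*Col4a2*, whose chain joins with that of *Col4a1* in the same trimer, had 8.76, 8.99, 8.74 and 8.92 log2 CPM in the internal samples and 7.91, 7.42 and 7.50 in the external samples. These groups did not overlap either. Its log2 fold change was 1.24 ± 0.14 (SE, adjusted p = 1.22e-06 in limma). Within each sample *Col4a1* exceeded *Col4a2*, by 1.68 ± 0.18 on the log2 scale in the internal region (SD, n = 4) and by 1.41 ± 0.12 in the external region (SD, n = 3). This difference between the 2 genes did not pass between the regions (two-sided exact permutation test, p = 0.0857, adjusted p = 0.0857 over 3 pairs of genes), the samples ranging from 1.43 to 1.87 internally and from 1.34 to 1.54 externally. The smallest p that 4 samples against 3 allow is 0.0286.

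**Figure D1:**
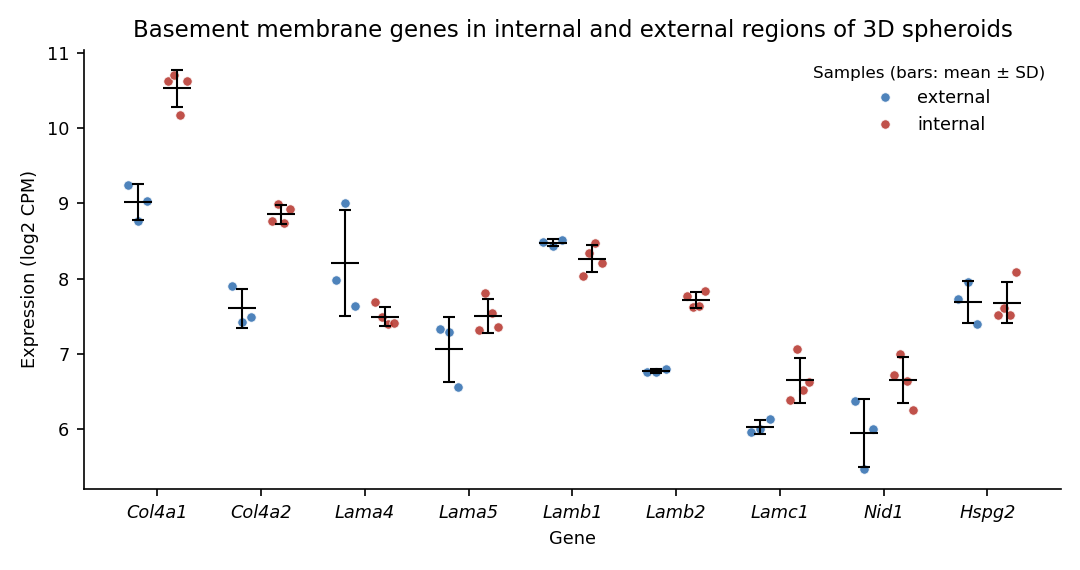
Expression (log2 CPM, vertical axis) of 9 basement membrane genes (horizontal axis) in the 3 external and 4 internal samples, each point being 1 sample and the bars the mean ± SD. The internal samples of *Col4a1*, *Col4a2*, *Lamb2* and *Lamc1* all lie above the external samples, and the external replicate 2 stands apart for *Lama4* at 9.00 log2 CPM.

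Among the laminin β chains, the regions differed in *Lamb2* and not detectably in *Lamb1*. *Lamb2* (chromosome 9, 108479736 to 108490530) encodes the β2 chain. Its level was 7.77, 7.62, 7.64 and 7.84 log2 CPM in the internal samples and 6.77, 6.76 and 6.80 in the external ones. The external samples were nearly identical and all lay below the internal samples, with a log2 fold change of 0.94 ± 0.15 (SE, adjusted p = 4.32e-05 in limma).

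*Lamb1* (chromosome 12, 31265234 to 31329644), which encodes the β1 chain, had 8.04, 8.34, 8.47 and 8.21 log2 CPM internally and 8.49, 8.43 and 8.52 externally. The groups overlapped, and the internal samples were more spread. In limma the log2 fold change was -0.21 with a 95% interval from -0.50 to 0.07 (adjusted p = 0.297).

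The β chains can also be compared within each sample, where the scaling between libraries cancels. *Lamb1* exceeded *Lamb2* by 1.73, 1.67 and 1.72 on the log2 scale in the external samples and by 0.27, 0.72, 0.83 and 0.38 in the internal samples. The groups lay apart, with a difference of -1.15 between them (two-sided exact permutation test, p = 0.0286, the smallest that this design allows, adjusted p = 0.0429 over 3 pairs). As a share of the reads of *Lamb1*, *Lamb2* and *Lamb3*, *Lamb2* held 40.5% ± 4.48 (SD, n = 4) in the internal region and 23.3% ± 0.312 (SD, n = 3) in the external region.

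Of the 2 laminin α chain genes, *Lama4* was lower in the internal region and *Lama5* did not pass. *Lama4* (chromosome 10, 38965515 to 39110188) encodes a short α chain that is typical of vessel and mesenchymal basement membranes. It had 7.68, 7.49, 7.41 and 7.41 log2 CPM in the internal samples and 7.98, 9.00 and 7.64 in the external samples. The external replicate 2 stood far above all other samples, and the external replicate 3 lay just below the internal replicate 1. Its log2 fold change was -0.71 ± 0.21 (SE, adjusted p = 0.0176 in limma), and without the external replicate 2 it was -0.31 (adjusted p = 0.236), so that the call rests on that sample. The call also ended with no variance trend (adjusted p = 0.184), with a robust prior (0.0514) and after quantile normalization (0.0607).

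*Lama5* (chromosome 2, 180176373 to 180225859) encodes a long α chain of epithelial basement membranes. Its level was 7.32, 7.81, 7.55 and 7.35 log2 CPM in the internal samples and 7.33, 7.29 and 6.57 in the external samples. The external replicate 3 was the lowest, and the other 2 external samples lay beside the lowest internal ones. Here the log2 fold change was 0.45 with a 95% interval from 0.07 to 0.83 (adjusted p = 0.0853 in limma). It passed without the external replicate 1 (log2 fold change 0.58, adjusted p = 0.0487) and after quantile normalization (0.54, adjusted p = 0.0431). Without the external replicate 3 the log2 fold change was 0.20 (adjusted p = 0.481 in limma), the lowest value of any sample left out.

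Within a sample, *Lama4* exceeded *Lama5* by 0.65, 1.71 and 1.07 on the log2 scale in the external samples. In the internal samples the difference was 0.36, -0.32, -0.14 and 0.06, close to equality. The groups did not overlap, and they differed by -1.16 (two-sided exact permutation test, p = 0.0286, adjusted p = 0.0429 over 3 pairs). *Lama4* held 48.0% ± 5.08 of the reads of *Lama3*, *Lama4* and *Lama5* in the internal region (SD, n = 4) and 68.0% ± 8.34 in the external region (SD, n = 3). Without the external replicate 2 the difference between the regions was -0.87, and with so few samples left no p under 0.05 can be reached.

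*Lamc1* (chromosome 1, 153218922 to 153332786) encodes the γ1 chain, the usual γ partner of the chains above. It had 6.38, 7.06, 6.52 and 6.63 log2 CPM in the internal samples and 5.96, 6.0 and 6.14 in the external samples. The groups did not overlap, and the internal replicate 2 was the highest. Its log2 fold change was 0.62 ± 0.18 (SE, adjusted p = 0.0184 in limma). The call ended without the internal replicate 2 (log2 fold change 0.48, adjusted p = 0.0915), without the external replicate 1 (0.58, adjusted p = 0.0539) or 2 (0.60, adjusted p = 0.0635), and with no variance trend (adjusted p = 0.0893).

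Of the linking proteins, nidogen 1 and perlecan were covered in the regions. *Nid1* (chromosome 13, 13437551 to 13512269) encodes the former, which connects laminin with collagen IV. It had 6.72, 6.99, 6.64 and 6.26 log2 CPM in the internal samples and 6.37, 5.48 and 6.01 in the external samples, so that the internal replicate 4 lay below the external replicate 1. A log2 fold change of 0.70 ± 0.21 (SE, adjusted p = 0.0197 in limma) was found. That call ended without the internal replicate 1 (0.68, adjusted p = 0.0512) or 2 (0.59, adjusted p = 0.0777), without the external replicate 2 (0.46, adjusted p = 0.172), and with no variance trend (adjusted p = 0.134).

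*Hspg2* (chromosome 4, 137468769 to 137570630), the gene of perlecan, a large heparan sulfate proteoglycan, showed no detectable difference. Its values were 7.52, 7.61, 7.52 and 8.09 log2 CPM internally and 7.72, 7.96 and 7.40 externally. The groups overlapped widely, and the internal replicate 4 was the highest of all samples. Its log2 fold change was -0.01 with a 95% interval from -0.36 to 0.34 (adjusted p = 0.977 in limma).

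The genes stood in a different order in the 2 regions. In the internal region *Col4a1* (10.53 ± 0.25 log2 CPM, SD, n = 4), *Col4a2* (8.85 ± 0.12) and *Lamb1* (8.27 ± 0.18) followed each other without overlap of their samples. *Lamb2*, *Hspg2*, *Lama5* and *Lama4* came next, between 7.50 and 7.72 log2 CPM on average, and each overlapped its neighbour. *Nid1* and *Lamc1* were the lowest, both at 6.65. In the external region *Col4a1* (9.02 ± 0.24, SD, n = 3) was again the highest, but *Lamb1* (8.48 ± 0.05), *Lama4* (8.21 ± 0.71) and *Hspg2* (7.69 ± 0.28) came before *Col4a2* (7.61 ± 0.26), and these 4 overlapped from neighbour to neighbour. Summed over the 9 genes, the level was between 2859 and 3555 CPM in the internal samples and between 1779 and 2083 CPM in the external samples.

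Markers of cell types moved between the regions as well, and their part in the differences above was not tested. Their counts stand against 9.58% of all genes higher and 12.1% lower internally. Of 12 lens markers listed, 9 were in the region data, where 6 were higher internally (4 without the external replicate 2) and 0 lower, and their summed level was between 2360 and 2455 CPM internally and between 1441 and 1580 CPM externally. Of 8 fibroblast and mesenchyme markers, 3 were higher and 2 lower, with summed levels of 5267 to 7543 CPM internally and 5358 to 7373 CPM externally. To these sums *Vim* gave 21896 to 53597 reads per internal sample and 16784 to 36546 per external sample. *Acta2*, which encodes smooth muscle actin, was lower internally with a log2 fold change of -2.56, and *Postn*, which encodes the matrix protein periostin, was higher with 2.73. *Col1a1*, the gene of a collagen I chain, was lower with -1.56, while *Col3a1* and *Pdgfrb* were higher. With single samples left out, the log2 fold change was 1.27 to 2.01 for *Col3a1* and 0.76 to 1.03 for *Pdgfrb*. Among the lens markers *Prox1*, a transcription factor gene of fiber differentiation, was higher internally with a log2 fold change of 1.45, and *Hsf4*, a heat shock factor gene of the lens, had 26 to 142 reads per internal sample and 0 to 6 per external sample. Endothelial markers were nearly absent, since *Eng* was the only 1 of 7 in the data and the sum was at most 17.9 CPM. Macrophage and blood cell markers, 2 of 6 in the data, summed to at most 10.01 CPM. Mitochondrially encoded genes, 7 of 13 in the data, held 5.42% to 6.98% of the reads internally and 2.53% to 3.60% externally, and 6 of the 7 were higher internally and 1, *ND6*, lower. In such bulk samples, fewer cells of a type and less RNA per cell cannot be told apart.

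To describe how these genes differed between spheroids and flat cultures, the 3D samples were compared with the 2D samples. *Lama4* and *Lamb1* were higher in 3D and the other 8 genes did not pass. Thus 2 of 10 were higher, against 9.74% of all genes, and 0 of 10 were lower, against 9.25% of all genes. At the stricter threshold 1 of 10 was higher, against 2.92% of all genes, and 0 of 10 lower, against 1.51%. Every 3D sample lay above every 2D sample in the same 2 genes, which held for 12.0% of all genes, and every 3D sample lay below in 0 of the 10, which also held for 12.0%. The median log2 fold change was 0.24 over the 10 genes and -0.03 over all genes. The count of 2 was the same under each alternative that was run.

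*Lama4* had 4.08, 4.83, 3.49 and 4.54 log2 CPM in the 2D replicates 1 to 4 and 6.42, 6.30, 6.49 and 5.73 in the 3D replicates 1 to 4. The 2D replicate 3 was the lowest and the groups lay far apart. In linear terms the level went from 19.8 ± 7.52 CPM in 2D to 76.6 ± 16.6 CPM in 3D (n = 4 each, SD), from 94 to 222 reads per 2D sample to 426 to 691 reads per 3D sample. This was a log2 fold change of 2.00 ± 0.28 (SE, adjusted p = 0.00184 in limma), and it was 1.75 without the 2D replicate 3 (adjusted p = 0.00269).

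*Lamb1* had 8.56, 8.75, 8.58 and 8.44 log2 CPM in 2D and 8.91, 9.38, 9.17 and 9.27 in 3D. The lowest 3D sample, replicate 1, was close to the highest 2D sample, replicate 2, but the groups did not overlap. Its log2 fold change was 0.60 ± 0.13 (SE, adjusted p = 0.0126 in limma). With a mean of 9.18 ± 0.20 log2 CPM in 3D (SD, n = 4), *Lamb1* was beside *Col4a1* (9.11 ± 0.27) the most abundant of the 10 genes, and the samples of these 2 genes overlapped.

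**Figure D2:**
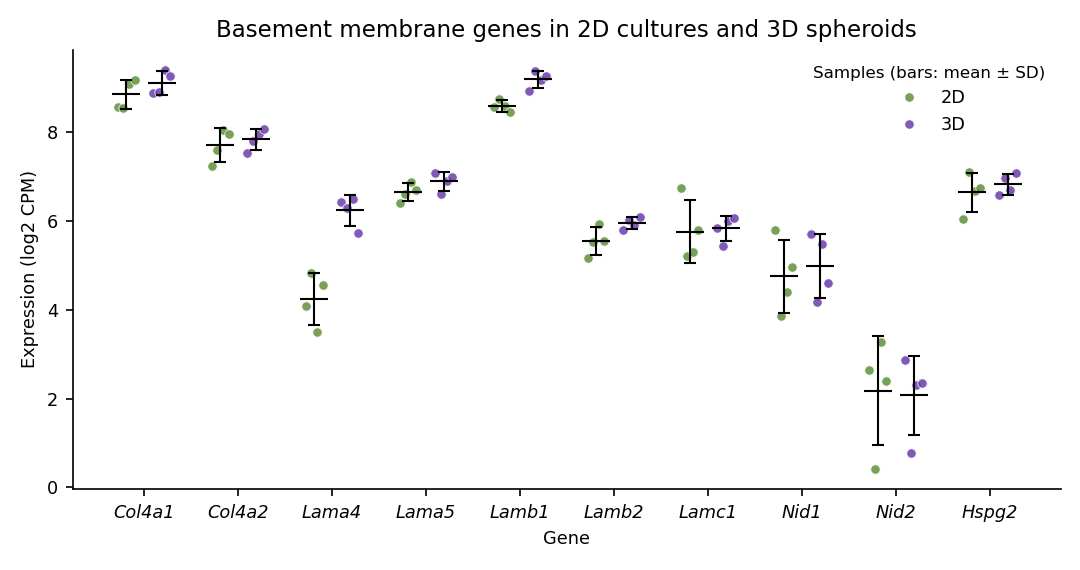
Expression (log2 CPM, vertical axis) of 10 basement membrane genes (horizontal axis) in the 4 2D and 4 3D samples, each point being 1 sample and the bars the mean ± SD. The groups are apart for *Lama4* and *Lamb1*, while *Nid1* and *Nid2* vary more within each group than between the groups.

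Collagen IV transcripts overlapped between the cultures. *Col4a1* had 8.57, 8.55, 9.09 and 9.17 log2 CPM in 2D and 8.87, 8.89, 9.41 and 9.27 in 3D, and *Col4a2* had 7.22, 7.60, 8.06 and 7.96 in 2D and 7.52, 7.80, 7.96 and 8.07 in 3D. In both groups the replicates 3 and 4 were the higher ones. In limma the log2 fold change was 0.26 for *Col4a1* (95% interval -0.15 to 0.68, adjusted p = 0.350) and 0.13 for *Col4a2* (-0.30 to 0.56, adjusted p = 0.685 in limma).

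For the other laminin chains the shifts were small or uncertain. *Lamb2* ranged from 5.16 to 5.93 log2 CPM in 2D and from 5.79 to 6.09 in 3D, with a log2 fold change of 0.41 (95% interval 0.03 to 0.79, adjusted p = 0.120 in limma). *Lama5* ranged from 6.41 to 6.88 in 2D and from 6.60 to 7.09 in 3D, with 0.24 (-0.09 to 0.57, adjusted p = 0.277 in limma). Both pairs of groups overlapped. *Lamc1* had 6.74, 5.21, 5.29 and 5.80 in 2D against 5.84, 5.43, 6.0 and 6.07 in 3D, so that the 2D samples, and above all the 2D replicate 1, set its spread. Its log2 fold change was 0.07 (-0.60 to 0.75, adjusted p = 0.888 in limma), and leaving out single samples moved it between -0.11 (without the 2D replicate 2) and 0.40 (without the 2D replicate 1, adjusted p = 0.204).

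Nidogen transcripts were the most variable. *Nid1* had 5.78, 3.86, 4.39 and 4.96 log2 CPM in 2D and 5.70, 4.18, 5.47 and 4.60 in 3D. *Nid2* (chromosome 14, 19751265 to 19811787), the gene of nidogen 2, had 2.63, 0.41, 3.28 and 2.39 in 2D and 2.86, 0.78, 2.30 and 2.34 in 3D. Both genes were lowest in the replicates numbered 2 of both groups, where *Nid2* had 8 reads in 2D and 12 in 3D. Fold changes on the log2 scale were 0.24 for *Nid1* (-0.71 to 1.19, adjusted p = 0.736 in limma) and -0.11 for *Nid2* (-1.48 to 1.26, adjusted p = 0.920 in limma), intervals too wide to tell a rise from a fall. Leaving out single samples moved *Nid2* between -0.70 (without the 2D replicate 2) and 0.32 (without the 3D replicate 2), with 0.26 without the 2D replicate 3. *Hspg2* ranged from 6.05 to 7.11 in 2D and from 6.57 to 7.07 in 3D, with a log2 fold change of 0.18 (-0.29 to 0.66, adjusted p = 0.585 in limma).

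**Figure D3:**
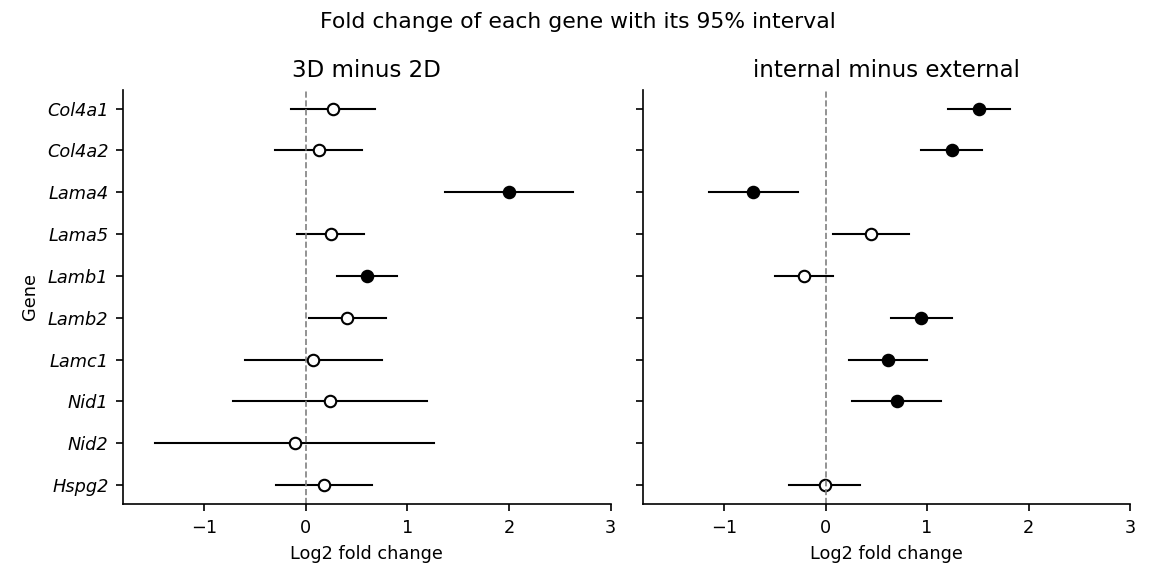
Log2 fold change (horizontal axis) of each gene (vertical axis) for 3D minus 2D and for internal minus external, with the 95% interval as a line. Filled points passed an adjusted p of 0.05 in limma, which were 2 of 10 genes in the cultures and 6 of 9 in the regions. Of all genes, 9.74% were higher and 9.25% lower in 3D, and 9.58% were higher and 12.1% lower internally. *Lama4* had opposite signs (2.00 and -0.71), but the regional calls of *Lama4*, *Lamc1* and *Nid1* each ended without the external replicate 2.

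Within a sample, *Lama4* was below *Lama5* in all 8 cultures. The difference was -2.33, -1.77, -3.39 and -2.15 on the log2 scale in the 2D samples and -0.66, -0.30, -0.40 and -1.25 in the 3D samples. The groups did not overlap, and they differed by 1.76 (two-sided exact permutation test, p = 0.0286, the smallest that 4 against 4 samples allow, adjusted p = 0.114 over 4 pairs). Adjusted over 4 pairs, this p does not pass. *Lama4* held 16.3% ± 5.76 of the reads of *Lama3*, *Lama4* and *Lama5* in 2D and 38.8% ± 6.89 in 3D (n = 4 each, SD).

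The other pairs did not pass between the cultures. *Lamb1* exceeded *Lamb2* by 3.04 ± 0.33 in 2D and by 3.23 ± 0.10 in 3D (two-sided exact permutation test, p = 0.343, adjusted p = 0.457). *Lamb2* thus held 10.9% ± 2.28 of the reads of the β chain genes in 2D and 9.58% ± 0.599 in 3D (n = 4 each, SD). *Col4a1* exceeded *Col4a2* by 1.13 ± 0.18 in 2D and 1.27 ± 0.16 in 3D (exact permutation p = 0.314, adjusted p = 0.457). *Nid1* exceeded *Nid2* by 2.57 ± 1.04 in 2D and 2.92 ± 0.49 in 3D (exact permutation p = 0.686, adjusted p = 0.686). For the nidogens the change of this difference was 0.35 from 2D to 3D, and -0.14 without the 2D replicate 3. As the regions were processed apart from the cultures, their shares are set beside these without a test.

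**Figure D4:**
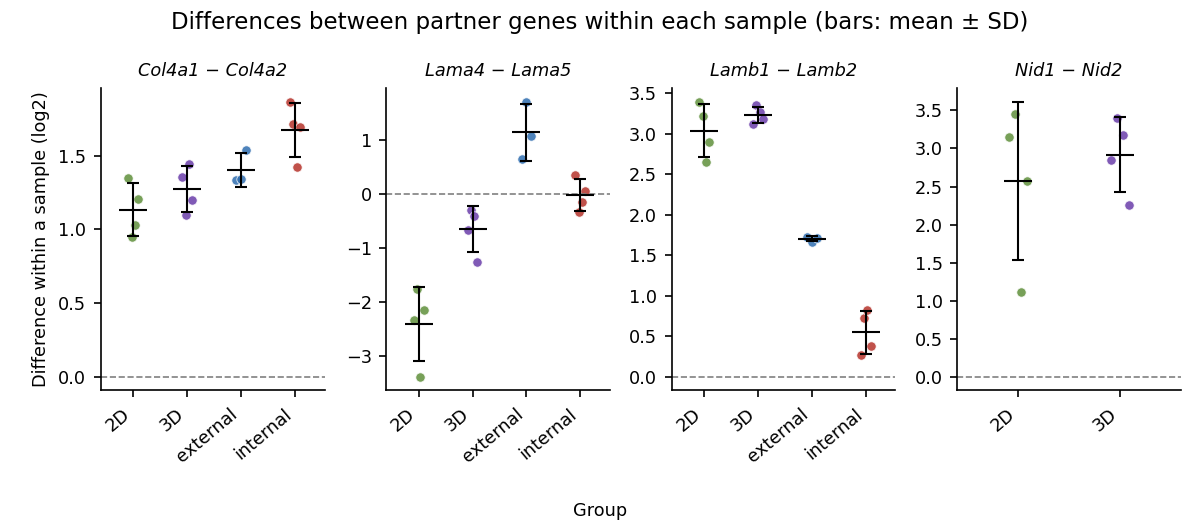
Difference of log2 CPM between the 2 genes of a pair within each sample (vertical axis, log2) in each group (horizontal axis), each point being 1 sample and the bars the mean ± SD. The internal samples lie below the external samples for *Lama4* minus *Lama5* and for *Lamb1* minus *Lamb2*, and the 3D samples lie above the 2D samples for *Lama4* minus *Lama5*.

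The cell type markers of the cultures also moved, and their part in the results was not tested. Here 9.74% of all genes were higher and 9.25% lower in 3D. Of 12 lens markers listed, 8 were in the culture data, where 3 were higher in 3D (*Maf*, *Pax6* and *Six3*, of which 0 passed without the 3D replicate 1 or 3), and the summed level was between 1193 and 1644 CPM in 2D and between 1794 and 2273 CPM in 3D. Of 9 fibroblast and mesenchyme markers 4 were higher in 3D (*Pdgfrb*, *Postn*, *Dcn* and *Col3a1*) and 0 lower. All 4 were past the stricter threshold, against 2.92% of all genes. With single samples left out, the log2 fold change was 4.74 to 6.65 for *Dcn* and 3.65 to 4.62 for *Postn*. The sums over the 9 markers overlapped (7544 to 12354 CPM in 2D and 8897 to 11852 CPM in 3D). To these sums *Vim* gave 43510 to 102345 reads per 2D sample and 57158 to 75019 per 3D sample. Mitochondrially encoded genes, again 7 of 13, held 2.27% to 3.72% of the reads in 2D and 4.02% to 6.23% in 3D. Of these, 4 were higher in 3D and 0 lower. Only 2 were higher without the 2D replicate 3 or 4 or the 3D replicate 1, 3 or 4. Endothelial markers summed to at most 8.31 CPM and macrophage markers to at most 1.64 CPM.

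Of 10 genes listed for the remaining chains of collagen IV and laminin, 7 were in the region data, of which 2 were higher internally and 0 lower, against 9.58% and 12.1% of all genes. *Col4a4*, which encodes a chain of another collagen IV trimer, had 5.15 ± 0.74 log2 CPM internally (SD, n = 4) and 3.69 ± 0.09 externally (SD, n = 3), a log2 fold change of 1.47 (adjusted p = 0.00247 in limma), and its groups did not overlap. *Lama3*, the α chain of epithelial anchoring laminins, had 3.74 ± 0.63 and 1.47 ± 1.57, a log2 fold change of 2.26 (adjusted p = 0.00778 in limma) with overlapping groups and between 4 and 57 reads per external sample. The call for *Lama3* ended without the external replicate 2 (1.87, adjusted p = 0.0577 in limma) or 3 (1.75, adjusted p = 0.0527). Of 6 such genes in the culture data, 0 passed in either direction in limma, against 9.74% of all genes higher and 9.25% lower in 3D, and *Col4a4* alone had an unadjusted p under 0.05 (log2 fold change 2.26, adjusted p = 0.0740 in limma). *Col4a4* had 0 to 40 reads per 2D sample, and without the 2D replicate 3 its log2 fold change was 1.28 (adjusted p = 0.0341 in limma); it also passed without the 2D replicate 2 (2.65, adjusted p = 0.0407). The list's median log2 fold change was 0.37 in the regions and 0.55 in the cultures.

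Of 12 other components of basement membranes in the region data, 3 were higher internally, against 9.58% of all genes, and 1 was lower, against 12.1%, and the median log2 fold change was -0.16. Without the external replicate 3 a further gene was lower, *Tinagl1*, which encodes a matrix glycoprotein, with a log2 fold change of -1.34 (adjusted p = 0.0324 in limma) in place of -0.75 (adjusted p = 0.237). *Smoc2*, a calcium-binding matrix protein gene, had 3.97 ± 0.50 log2 CPM internally and 0.83 ± 0.31 externally (log2 fold change 3.14, adjusted p = 5.39e-05 in limma), with 5 to 11 reads per external sample. *Ntn4*, which encodes a laminin-binding netrin, had 4.02 ± 0.59 and 1.22 ± 0.96 (log2 fold change 2.80, adjusted p = 0.00032 in limma), with 3 to 22 reads per external sample. The third was *Agrn*, the gene of the proteoglycan agrin, with a log2 fold change of 0.75, and the lower one was *Sparc*, a collagen-binding glycoprotein gene, with -0.73.

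In the cultures, 5 of 15 of these components were higher in 3D, against 9.74% of all genes, and 2 were lower, a share near the 9.25% of all genes, with a median log2 fold change of 0.48. *Bgn*, the gene of the small proteoglycan biglycan, had 11.52 ± 0.37 log2 CPM in 3D, above 10.11 ± 0.38 in 2D (n = 4 each, SD, log2 fold change 1.41, adjusted p = 0.003 in limma). *Col15a1*, which encodes a collagen of the outer face of basement membranes, had 2.89 ± 0.39 and 0.42 ± 1.10 (log2 fold change 2.48, adjusted p = 0.00948 in limma), with 3 to 31 reads per 2D sample. *Agrn*, *Fbln2* and *Ltbp4* were the other higher genes, with log2 fold changes of 1.08, 0.62 and 1.48. *Fras1* and *Smoc1* were the lower ones, and *Fras1* had at most 2 reads in any 3D sample. Leaving out single samples gave 2 to 5 higher genes, the lowest without the 3D replicate 3 or 4, and 0 to 2 lower genes, while *Bgn* and *Col15a1* passed whichever sample was left out. The calls for *Fras1* and *Smoc1* each ended in 6 of these 8 fits. Without the 2D replicate 3 the log2 fold change was -1.32 for *Smoc1* (adjusted p = 0.0825 in limma) and -1.75 for *Fras1* (adjusted p = 0.0773).

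Of 13 genes of cell surface receptors for basement membranes, 4 were higher internally, against 9.58% of all genes, and 2 were lower, a share near the 12.1% of all genes. The collagen receptor genes *Ddr1* (6.86 ± 0.20 log2 CPM internally and 5.75 ± 0.19 externally, log2 fold change 1.11, adjusted p = 7.45e-05 in limma) and *Itga1* (log2 fold change 0.90) were among the higher ones, as were *Dag1* (0.97), the gene of the laminin receptor dystroglycan, and *Itga2*. *Itga2*, a further collagen receptor gene, had 8 to 78 reads per internal sample and 0 to 3 per external sample. *Itga3*, the gene of a laminin-binding integrin chain, was lower internally (5.72 ± 0.29 log2 CPM against 7.19 ± 0.33, log2 fold change -1.47, adjusted p = 8.82e-06 in limma), and so was *Cd151* (-0.45), whose product associates with that integrin and whose call ended in 4 of the 7 fits that left out a sample (without the internal replicate 1 or 2 or the external replicate 1 or 3). *Itgb1*, the common β chain, was at 8.64 ± 0.24 and 8.78 ± 0.19 log2 CPM and did not pass (95% interval -0.44 to 0.17).

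Between the cultures, 3 of these 13 receptor genes were higher in 3D and 0 lower, against 9.74% and 9.25% of all genes. *Ddr1* had 6.32 ± 0.24 log2 CPM in 3D, above 5.28 ± 0.13 in 2D (n = 4 each, SD, log2 fold change 1.03, adjusted p = 0.0021 in limma). *Itga2* had 10 to 21 reads per 3D sample and 0 to 4 per 2D sample, and *Sdc4*, a syndecan gene, had a log2 fold change of 0.74. *Itga3* did not pass, with a log2 fold change of -0.51 (95% interval -0.92 to -0.10, adjusted p = 0.0828 in limma), and it passed without the 2D replicate 3 (-0.69, adjusted p = 0.0159). The call for *Sdc4* ended in 6 of the 8 fits that left out a sample, and that for *Itga2* without the 3D replicate 3, while *Ddr1* passed in all 8.

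All 15 genes listed for the processing and secretion of collagen IV were in both data sets. In the regions 5 were higher internally (*P3h2*, *P4ha1*, *Plod2*, *Crtap* and *P4ha2*) and 0 lower, against 9.58% and 12.1% of all genes, and the median log2 fold change was 0.10. *P3h2*, a prolyl 3-hydroxylase gene, had 6.73 ± 0.34 log2 CPM internally and 5.46 ± 0.22 externally (log2 fold change 1.27, adjusted p = 5.93e-05 in limma). *P4ha1*, which encodes a catalytic chain of prolyl 4-hydroxylase, had a log2 fold change of 0.75, and *Serpinh1*, the collagen chaperone gene, did not pass (-0.21, 95% interval -0.55 to 0.13). Leaving out single samples gave 2 to 5 higher genes, the lowest without the external replicate 2, and the call for *P4ha2* ended in 6 of 7 such fits. In the cultures 2 were higher in 3D (*P3h2*, log2 fold change 1.30, and *Plod3*, a lysyl hydroxylase gene, 0.49) and 0 lower, with a median of 0.42. The 2 higher genes are a share near the 9.74% of all genes higher in 3D, and 9.25% of all genes were lower. Leaving out single samples gave 0 to 3 higher genes there, with 0 without the 2D replicate 4 or without any 1 of the 3D replicates. The log2 fold change of *P3h2* was 0.98 without the 2D replicate 3 (adjusted p = 0.0637 in limma).

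**Figure D5:**
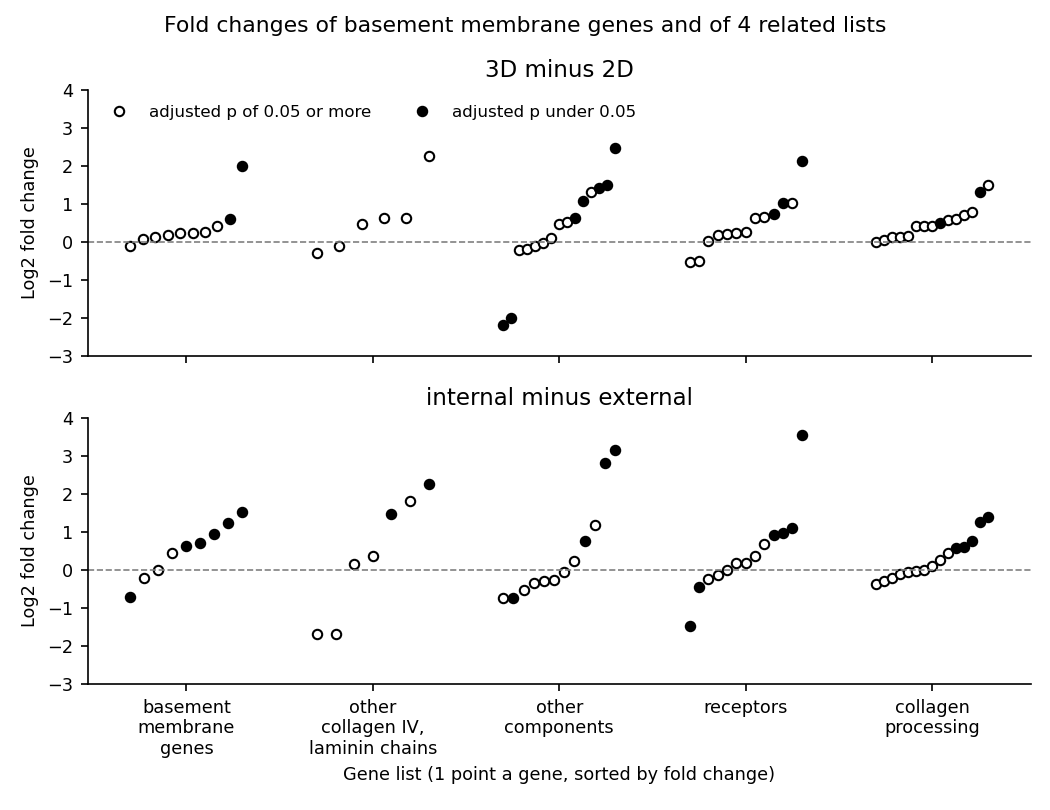
Log2 fold change (vertical axis) of the basement membrane genes and of 4 related lists (horizontal axis), 1 point a gene, for 3D minus 2D (upper panel) and internal minus external (lower panel). Filled points passed an adjusted p of 0.05 in limma, for example 5 of 15 collagen processing genes in the regions (2 without the external replicate 2) and 2 of 15 in the cultures. Of all genes, 9.58% were higher and 12.1% lower internally, and 9.74% were higher and 9.25% lower in 3D.

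The genes whose levels followed *Col4a1* most closely were ranked by Pearson correlation across the samples of a data set, leaving out genes whose mean was below 3 log2 CPM. Over the 7 region samples these were *Mctp1*, *Ccl8*, *Mmp16*, *Pik3r1* and *Nudt7* (r between 0.994 and 0.998), and *Col4a2* ranked 22nd of 8860 genes (r = 0.984) and *Lamb2* 86th (r = 0.965). As the *Col4a1* values fall into separate groups by region, these r follow mostly the difference between the regions. Over the 8 cultures the closest were *Kdelr3*, *Cav2*, *Ebp*, *P4ha1* and *Steap3* (r between 0.911 and 0.931), and *Col4a2* ranked 35th of 8829 genes (r = 0.844). For *Lamc1* the closest were *Ccnl2*, *Slc45a4*, *Gstm1*, *Zfp622* and *Hnrnpul2* in the regions (r between 0.971 and 0.987) and *Pex13*, *Cnpy4*, *Zdhhc8*, *Elk4* and *Igf2r* in the cultures (r between 0.947 and 0.969). *Nid1* followed *Lamc1* in the cultures with r = 0.803, the highest value among the listed basement membrane genes that entered this ranking, which left out *Nid2*. All samples of a data set share their scaling, and these r are descriptions without a test.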

How the data were processed

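RNA of 15 samples was sequenced from the 3′ ends (QuantSeq). Per the paper's methods, the authors kept sense reads, trimmed adaptors and poly(A), aligned with STAR 2.7.8a (GRCm38.p6 genome), assigned unique alignments to genes using featureCounts 1.6.0 and removed genes of 0.2 CPM or less. The annotation release is not given in the sources used here. The authors deposited log2 CPM per sample in 2 tables, with a prior count of 2 reads on average. Their deposited columns of fold changes and p-values were not used.

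Whole reads were recovered from the spacing of the log2 values (100% within 0.01 of a whole number). Counting error alone is covered by depth, since PCR copies of a molecule cannot be told apart. Tests used limma 3.58.1 in R 4.3.3 on the deposited log2 CPM (empirical Bayes with a variance trend, two-sided, Benjamini-Hochberg over all genes of a table), as this is the deposited unit. Differences are taken as 3D minus 2D or internal minus external, on a scale that holds the prior and understates changes of low genes. Differences between partner genes within samples were tested by exact permutation. The scripts were tested on simulated data. Other steps used scipy 1.17.1, pandas 2.3.3 and numpy 2.4.6 in Python 3.11.15, and figures used matplotlib 3.10.9.

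Groups and replicate numbers are those labelled. The members and lists were chosen with earlier results of these data known. Named genes are all members, in the 4 related lists those past the stricter threshold and up to 4 others, and the 5 genes closest to *Col4a1* and to *Lamc1*. Genes named beside a count of 5 or fewer, and markers named, were chosen after their values were seen. Positions are from GENCODE vM21 (GRCm38), which held 11676 of 11677 and 11298 of 11299 IDs. *Col4a1* and *Col4a2* overlap on opposite strands at their starts, and the sense reads used lie at the other ends. No protein sequences were used here. Alternatives were other variance priors, scalings and priors, voom on the recovered reads, a filter on low values, the replicate number as a block, and leaving out each sample.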

Additional observations from a re-analysis of the deposited data

Results flagged for a closer look

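Among 29 groups of 4 samples checked over the basement membrane genes, 2 held a sample far from the others. That is a share near the 1 in 20 groups that chance gives. *Col4a1* had 10.17 log2 CPM in the internal replicate 3, against 10.62 to 10.70 in the other internal samples. *Hspg2* had 8.09 log2 CPM in the internal replicate 4, against 7.52 to 7.61 in the others. The internal replicate 3 was the shallowest of its group with 4256391 reads and the internal replicate 4 the deepest with 11702504, and a part of depth in either value was not tested.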

How the results depend on the processing

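Of the fold changes of single members under alternatives, 274 kept their direction and side of the threshold, 13 lost a call, 2 gained one and 16 changed sign, all 16 in genes that did not pass. In the cultures, leaving out single samples moved the log2 fold change of *Col4a2* between -0.036 and 0.24, *Hspg2* between -0.017 and 0.34, *Lamc1* between -0.11 and 0.40, *Nid1* between -0.057 and 0.58 and *Nid2* between -0.70 and 0.32, and the difference *Nid1* minus *Nid2* between -0.14 and 0.64. In the regions *Hspg2* moved between -0.16 and 0.12 in this way, and was at 0.13 after quantile normalization and at 0.0043 with voom on the recovered reads. In the cultures the counts of members (2 higher and 0 lower in 3D) were the same under all alternatives, while the number of genes passing ranged from 614 (without the 3D replicate 3) to 1444 (without the 2D replicate 2) for higher and from 533 to 1390 for lower when a sample was left out. Leaving out both samples numbered 2, an alternative chosen after seeing the data because they deviated together, gave 1232 and 1302 genes and a log2 fold change of 2.18 for *Lama4*.

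In the regions, the 5 members higher internally became 3 with no variance trend and 3 to 5 without single samples, the lowest without the internal replicate 2 or the external replicate 2, and 6 after quantile normalization. The 1 lower member, *Lama4*, became 0 with no variance trend, with a robust prior, after quantile normalization and without the external replicate 2, and stayed 1 without any other sample. With no variance trend, 624 genes were higher and 864 lower, in place of 1083 and 1370. Leaving out single samples moved the difference *Lama4* minus *Lama5* between -1.40 and -0.87 and *Lamb1* minus *Lamb2* between -1.25 and -1.06. Adjusted p under 0.05 cannot be reached there, so these values say nothing about the stability of the calls.

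The replicate numbers are shared between groups, and neither labels nor methods say that they pair samples. Deviations of same-numbered samples correlated at 0.23, 0.50, 0.07 and 0.01 in the cultures and at -0.04, -0.07 and -0.06 in the regions, so the numbers were not taken as pairs. Not every sample correlated best with its own number. With the replicate block, 1343 genes were higher and 1337 lower in 3D, with 2 members higher, and 702 were higher and 1084 lower internally, with 4 members higher, the call for *Lamc1* being lost (adjusted p = 0.0573 in limma). With the block the pair differences were -1.18 for *Lama4* minus *Lama5* and -1.10 for *Lamb1* minus *Lamb2*, and the smallest exact p is then 0.25. Depth limits mainly *Nid2* and the other genes with under 20 reads. The causes of these shifts were not tested.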
